A study of Homo sapiens with 16 samples.

Results

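The SOCS family comprises 8 genes, SOCS1 to SOCS7 and CISH, whose products switch off cytokine signals. They were taken by symbol, and all 8 had a row in both deposited tables. The table for RNA depleted of ribosomal RNA lists 60669 genes. RNA came from HMC3, a human cell line described as microglial, either wild type (WT) or labelled as METTL3 knockout (KO). METTL3 is the catalytic subunit of the enzyme that places N6-methyladenosine (m6A) on mRNA. No other allele, treatment or time point is named, and neither the number of clones nor the way the gene was disrupted is stated. The series lists 16 libraries: 5 per genotype from polyadenylated RNA by Smart-seq2, used here through a table of 1 comparison made by the authors, and 3 per genotype from RNA depleted of ribosomal RNA, used through TPM (a gene's share of a library's transcripts after division by its length). The labels do not say whether replicates were separate cultures, so p-values measure only the spread between these libraries.

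When a cytokine binds its receptor, Janus kinases (JAKs) phosphorylate the receptor and STAT transcription factors, and STATs then switch on SOCS1, SOCS2, SOCS3 and CISH. The SOCS proteins bind the phosphorylated receptor or kinase through an SH2 domain and, through a C-terminal SOCS box, recruit elongins B and C and cullin 5, which attach ubiquitin to the bound protein. SOCS1 and SOCS3 also block JAK catalysis directly, whereas SOCS4 to SOCS7 act more on growth factor and insulin receptors. In mouse T cells, SOCS mRNAs are known m6A targets whose decay slows when Mettl3 is lost. In microglia, SOCS1 and SOCS3 are known as brakes on interferon and interleukin 6 signals. m6A itself was not measured in the data used here.

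Promoter windows were searched for the STAT and interferon elements through which such feedback is known to run. Windows of 250 bases before an annotated start were found for 5 of the 8 members, 6 windows in all (SOCS1, SOCS3, SOCS4, SOCS6 and CISH) in RefSeq, build GRCh38.p14. The search covered both strands for TTCNNNGAA, the STAT element with a spacer of 3 bases, for its form with a spacer of 4, and for the core of the interferon response element (GAAA, any 2 bases, GAAA). The window of CISH held 4 matches to TTCNNNGAA, which 6.57% of all 35116 windows hold at least once. The SOCS1 window held 1 match to the interferon response element core, found in 3.02% of all windows. No match lay in the windows of SOCS4 and SOCS6, which says only that these letters are not in these windows, and the STAT element with a spacer of 4, found in 5.38% of all windows, had none in any member window. The stretches below lie outside every exon of GENCODE 29, are written 5′ to 3′ on the strand of the gene (minus for both), and carry matches in capitals. They are shown because they hold the matches among the members known to be induced by cytokines.
CISH, chr3:50611832-50611907: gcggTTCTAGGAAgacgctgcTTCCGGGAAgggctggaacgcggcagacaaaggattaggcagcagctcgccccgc
SOCS1, chr16:11256205-11256454: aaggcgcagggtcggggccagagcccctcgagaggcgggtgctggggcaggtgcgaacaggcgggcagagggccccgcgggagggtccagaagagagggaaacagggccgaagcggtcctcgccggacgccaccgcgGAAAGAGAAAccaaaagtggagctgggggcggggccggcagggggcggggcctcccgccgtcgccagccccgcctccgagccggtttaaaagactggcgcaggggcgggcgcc
The CISH stretch holds 2 of its 4 matches, TTCTAGGAA and TTCCGGGAA, and the other 2, TTCCTGGAA and TTCTTGGAA, lie farther upstream under annotated exons. Neither RefSeq window of SOCS3 covers the bases just before the start that GENCODE 29 gives for it, so SOCS3 is not compared here.

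Depth limits what can be said of this family. Applying the gene lengths of GENCODE 29 to the TPM gave whole reads for 90.9% of values above 0, to within 0.02 reads, and depths of 266157 to 487272 reads in the WT libraries and 512627 to 1267171 in those labelled KO. KO libraries 1 and 2 differed by no more than sampling noise (chi-square of 1.02 per degree of freedom over 10117 genes, p = 0.0687), while the other pairs of libraries with 1 label gave 1.17 to 1.54. They were averaged and counted as 1 sample, which left 3 WT and 2 KO samples. The labelled cell type was checked against 14 microglia markers, of which 9 were listed at 0 TPM in all 6 libraries, namely AIF1, CX3CR1, P2RY12, TMEM119, ITGAM, PTPRC, SPI1, TYROBP and SALL1. CD14 was listed at 0 to 5.49 TPM. Of 12 fibroblast and mural markers, LUM and FAP were listed at 0 in all 6, and the sum fell outside the other group's range, at 10369 to 12833 TPM in WT against 1165 to 1309 TPM in KO, most of it COL1A1 (748.6 to 11995 TPM) and COL1A2 (118 to 621 TPM). Single markers of that list differed in direction: COL1A1, COL1A2 and PDGFRB fell (log2 changes -3.70, -2.18 and -1.08; limma adjusted p = 0.000689, 0.00102 and 0.00968), while THY1 rose (1.05; limma adjusted p = 0.00256) and, like COL1A2, had a positive log2 fold change that passed in the authors' deposited table (0.58 and 0.30). In the authors' deposited table COL1A1 was lower, at -0.79 (adjusted p = 2.65e-15), and PDGFRB at -0.05 did not pass (adjusted p = 0.886). PDGFRB and THY1 were named after their values were seen. Of 8 astrocyte and neuron markers, AQP4 and RBFOX3 were listed at 0 in all 6, SNAP25 reached 9.79 TPM and SLC1A3 3.21 TPM, and the sum was 2.41 to 5.62 TPM in WT and 14.6 to 15.996 TPM in KO. The part of these differences in the results below was not tested. METTL3 mRNA was 29.4 ± 3.49 TPM (SD, n = 3) in WT and 41.2 ± 2.21 TPM (SD, n = 2) in KO samples, and did not pass (limma adjusted p = 0.106). The exact permutation test, two-sided, gave p = 0.2, the smallest this design allows. For METTL3 the authors' deposited table lists 0.09 as log2 fold change, adjusted p = 0.654. With the GC trend removed the log2 change of METTL3 was -0.37 (limma adjusted p = 0.271) and with median ratio scaling 0.13 (limma adjusted p = 0.646), against 0.48 as reported. Its mRNA level thus gave no clear decrease under the KO label, and KO stands below for libraries so labelled.

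SOCS3 was the most abundant member in every rRNA-depleted library. In WT it stood at 78.8 ± 7.67 TPM (SD, n = 3), above SOCS5 at 13.6 ± 3.46 TPM, SOCS4 at 12.2 ± 4.90 TPM and SOCS7 at 11.5 ± 1.48 TPM. SOCS1 followed at 6.67 ± 5.98 TPM, SOCS2 at 4.96 ± 1.31 TPM, SOCS6 at 4.19 ± 1.58 TPM and CISH, the first family member to be described, at 1.35 ± 2.34 TPM. The libraries of SOCS3 did not overlap with those of SOCS5, while every later pair of neighbours in this order overlapped. In the samples labelled KO the order was SOCS3 at 118 ± 19.6 TPM (SD, n = 2), SOCS4 at 34.7 ± 8.85 TPM, SOCS5 at 29.1 ± 8.55 TPM and SOCS7 at 14.97 ± 1.04 TPM, then SOCS1 (7.63 ± 4.12 TPM), SOCS6 (7.24 ± 1.97 TPM), SOCS2 (2.86 ± 0.00402 TPM) and CISH (1.695 ± 1.176 TPM). There SOCS5 lay above SOCS7 in every library, as SOCS6 did above SOCS2, whereas the neighbours SOCS4 and SOCS5, SOCS1 and SOCS6, and SOCS2 and CISH overlapped. The SD of SOCS2 over the 2 KO samples understates its error, since its KO libraries held only 5, 8 and 3 reads.

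**Figure D1:**
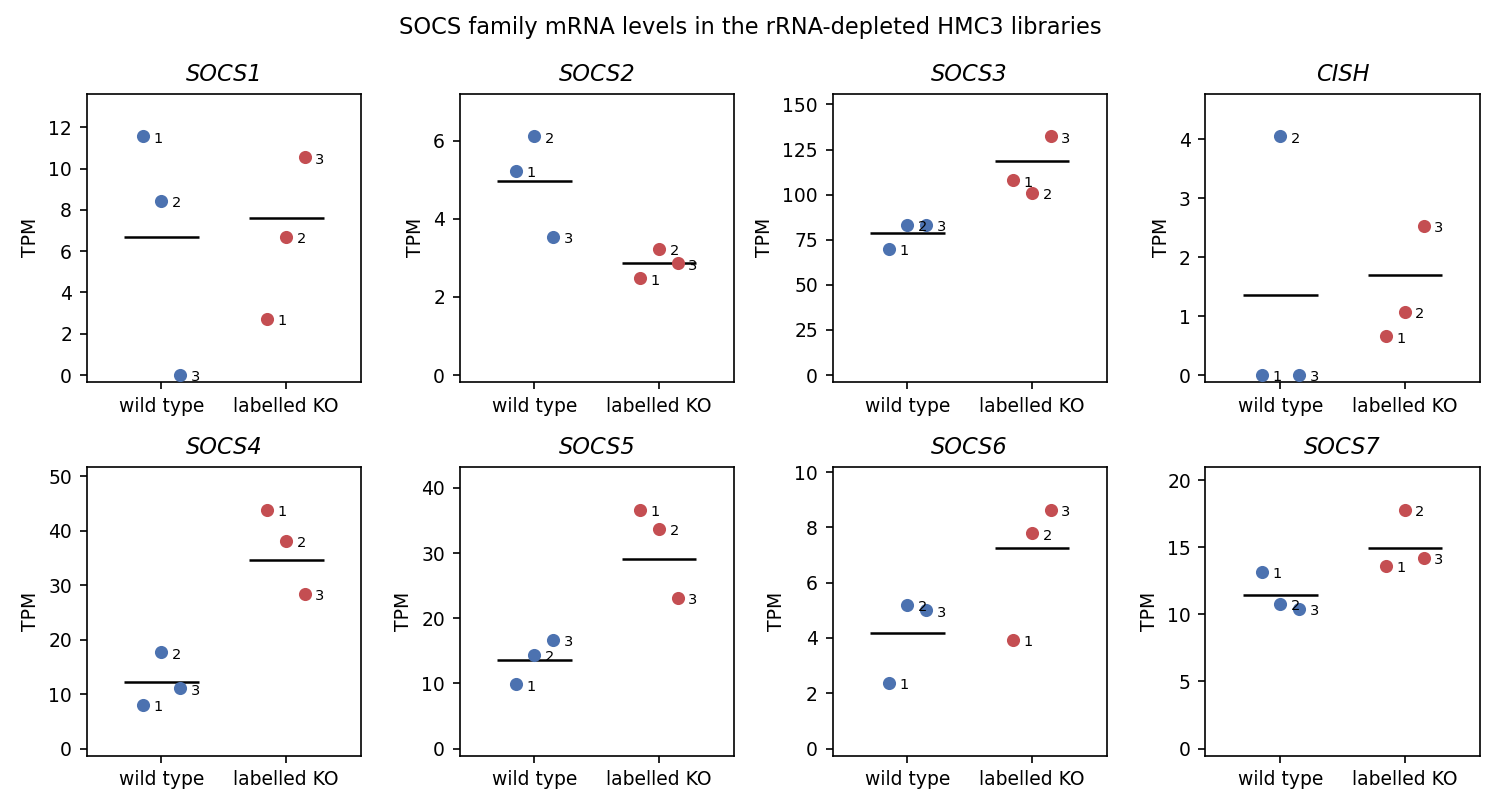
TPM of each SOCS family member in the 6 rRNA-depleted libraries. Points are libraries numbered by replicate, blue for wild type and red for those labelled KO, horizontal lines are the means over 3 WT and 2 KO samples, and each panel has its own scale. The KO libraries lie above all WT libraries for SOCS3, SOCS4, SOCS5 and SOCS7 and below them for SOCS2, and the groups overlap for SOCS1, SOCS6 and CISH.

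The polyadenylated libraries gave another order. Dividing the mean normalized count in the authors' deposited table by the gene length that the TPM table implies gave 33.4 per kilobase for SOCS5, 19.7 for SOCS4, 11.2 for SOCS3, 5.93 for SOCS6, 2.29 for SOCS2, 0.561 for SOCS7, 0.216 for CISH and 0.110 for SOCS1. SOCS5 was thus 2.99-fold higher than SOCS3 per kilobase in the authors' deposited table, while SOCS3 had 5.78 times the TPM of SOCS5 in WT and 4.06 times in KO rRNA-depleted samples. SOCS7 shifted too: SOCS5 was 59.7-fold higher than SOCS7 per kilobase in the authors' deposited table, but 1.19-fold higher in WT and 1.95-fold higher in KO samples by TPM. The poly(A) values are means over both genotypes, and these differences between library types were not tested.

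In the rRNA-depleted comparison, which sets libraries labelled KO against WT, SOCS3 and SOCS4 rose and no member fell past the threshold. These are 2 of 8 members, where 35.3% of the 14789 genes tested were called (22.9% higher and 12.4% lower), so the count is not above the background. That split depends on the scaling: 16% of genes were higher and 16.9% lower with median ratio scaling, and 11.4% and 15.1% of 14669 with the GC trend removed. The samples of the 2 genotypes did not overlap for 6 of 8 members, against 62.7% of all genes tested. On the log2(TPM + 1) scale, the 8 members had a median change of 0.64 and all genes tested 0.41. With SOCS1 and CISH left out, which held 3 reads or fewer in every library, the median was also 0.64. In the poly(A) comparison 7 members had an adjusted p in the authors' deposited table and 4 of these were under 0.05, SOCS3 and SOCS5 higher and SOCS2 and SOCS6 lower, where 19.9% of 14009 genes were called (9.55% higher and 10.3% lower). That table does not name its numerator. A positive value was read as higher in KO, because 91.5% of the 177 genes called in both comparisons, each at least 1 log2 unit from 0, then shared a sign. Over all 1327 genes called in both comparisons, whatever their size of change, 893 shared a sign. None of the 4 members called in the poly(A) comparison reached 1 log2 unit there. With the opposite reading all directions of the authors' deposited table would turn.

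SOCS3 (ENSG00000184557, chr17:78356778-78360077 in GRCh38, minus strand), which binds the interleukin 6 receptor subunit gp130 and blocks JAK1 and JAK2 there, was higher in both library types. It stood at 69.9, 83.3 and 83.2 TPM in WT libraries 1 to 3 and at 108, 101 and 132 TPM in KO libraries 1 to 3, from 22 to 101 reads per library. All KO libraries exceeded all WT libraries. The difference was 0.58 on the log2 scale (SE 0.16, 95% interval 0.16 to 0.99; limma adjusted p = 0.0444). Relative to the median of all genes tested it was 0.16. With the GC trend removed it was 0.74 (limma adjusted p = 0.0289). With median ratio scaling it was 0.22 and no longer passed (limma adjusted p = 0.395), and in voom on recovered reads it was 0.22 (adjusted p = 0.399). The call was also lost without any 1 of the 3 WT libraries or without KO library 1 or 3 (limma adjusted p from 0.0569 to 0.28). For SOCS3 the authors' deposited table lists 0.82 (SE 0.24) as log2 fold change, adjusted p = 0.00457, at a mean of 30.6 normalized counts. It was the only member called in both library types, in the same direction in each; 10.6% of 12498 genes with a test in both were called in both, and 7.15% in the same direction.

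SOCS4 (ENSG00000180008, chr14:55027230-55049488, plus strand), a member linked to the epidermal growth factor receptor, had the largest change as reported among members with over 3 reads. Its WT libraries held 8.05, 17.6 and 11.1 TPM and its KO libraries 43.8, 38.1 and 28.4 TPM, from 8 to 98 reads. The groups did not overlap, and the ratio of means was 2.83. The log2 change was 1.47 (SE 0.40, 95% interval 0.47 to 2.47; limma adjusted p = 0.0389), or 1.06 relative to all genes. Voom on recovered reads weights each value by the precision expected from its read count. It gave a change of 1.45 with an adjusted p of 6.06e-05. Voom called 7442 of all genes, against 5220 as reported. The transcripts of SOCS4 have a GC content of 35.3%, at the 2.17 percentile of genes tested, and the tenth of genes tested with the lowest GC content had a median log2 change of 1.24. Once the trend with GC content was subtracted, SOCS4 was at 0.20 (limma adjusted p = 0.755), and with median ratio scaling at 1.13 (limma adjusted p = 0.0859). Leaving out WT library 1, WT library 3 or KO library 3 also ended its call, at limma adjusted p-values of 0.0687, 0.0813 and 0.0997. SOCS4 did not pass in the authors' deposited table, which lists 0.12 (SE 0.13) as log2 fold change, adjusted p = 0.566, at a mean of 138 normalized counts.

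SOCS5 (ENSG00000171150, chr2:46698952-46780245, plus strand), which likewise acts on the epidermal growth factor receptor and on JAK1, followed SOCS4 in the rRNA-depleted libraries. It stood at 9.85, 14.4 and 16.6 TPM in WT and 36.6, 33.7 and 23.1 TPM in KO libraries, from 7 to 62 reads. The groups did not overlap. The log2 change of 1.04 (SE 0.34, 95% interval 0.17 to 1.91) missed the threshold with a limma adjusted p of 0.0683, passed in voom (0.94, adjusted p = 0.0171), and was -0.085 with the GC trend removed. Its GC content of 37.5% lies at the 6.53 percentile. For SOCS5 the authors' deposited table lists a positive log2 fold change, 0.32 (SE 0.11), adjusted p = 0.0246. SOCS5 shares 160 exonic bases with LINC01118 on the same strand, so some reads may belong to either.

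SOCS2 (ENSG00000120833, chr12:93569814-93583487, plus strand), a regulator of growth hormone signalling, was the only member with a negative change in both library types. It had 5.23, 6.11 and 3.53 TPM in WT and 2.47, 3.23 and 2.86 TPM in KO libraries, from 3 to 8 reads each. Every KO library lay below every WT library. The log2 change of -0.60 (SE 0.44, 95% interval -1.70 to 0.50) did not pass (limma adjusted p = 0.332), and relative to all genes it was -1.01. SOCS2 in the authors' deposited table was lower by log2 fold change, -0.87 (SE 0.30), adjusted p = 0.0207, at a mean of 15.5 normalized counts. It shares 277 exonic bases with SOCS2-AS1 on the opposite strand, and whether the counting used strand is not given in the sources used here.

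SOCS6 (ENSG00000170677, chr18:70288901-70330200, plus strand), which binds insulin receptor substrates and the receptor KIT, was lower in the authors' deposited table by log2 fold change, -0.70 (SE 0.21), adjusted p = 0.00792, at a mean of 35.5 normalized counts. In the rRNA-depleted libraries its values were 2.37, 5.19 and 5.002 TPM in WT and 3.92, 7.78 and 8.63 TPM in KO, from 2 to 17 reads. KO libraries 2 and 3 were above all WT libraries and KO library 1 was within their range. The log2 change of 0.70 (SE 0.49, 95% interval -0.55 to 1.95) did not pass (limma adjusted p = 0.319) and was -0.39 with the GC trend removed (GC content 38.0%, 8.18 percentile). The signs of SOCS6 therefore differed between library types, without a test of that difference.

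SOCS7 (ENSG00000274211, chr17:38352228-38405593, plus strand), a member with 10 exons in its longest coding transcript where the others have 1 to 4, did not pass in either library type. Its TPM were 13.1, 10.8 and 10.4 in WT and 13.6, 17.8 and 14.2 in KO libraries, from 9 to 56 reads. The groups did not overlap, but the gap between WT library 1 and KO library 1 was narrow. The log2 change was 0.36 (SE 0.29, 95% interval -0.38 to 1.10; limma adjusted p = 0.378), or -0.05 relative to all genes. For SOCS7 the authors' deposited table lists 0.51 (SE 0.60) as log2 fold change, adjusted p = 0.621, at a mean of 4.83 normalized counts.

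SOCS1 and CISH were too sparsely covered to compare. SOCS1 (ENSG00000185338, chr16:11254405-11256200, minus strand), an inhibitor of interferon signals, had 2, 1 and 0 reads in WT libraries 1 to 3 and 1, 3 and 2 in KO libraries, which gave 11.6, 8.45 and 0 TPM and 2.74, 6.71 and 10.54 TPM. CISH (ENSG00000114737, chr3:50606490-50611831, minus strand), an inhibitor of STAT5 signalling, had 0, 2 and 0 reads in WT and 1, 2 and 2 in KO libraries. These are 3 and 6 reads in all for SOCS1 (exact 95% Poisson intervals 0.619 to 8.77 and 2.2 to 13.1, covering counting error only) and 2 and 5 for CISH (0.242 to 7.22 and 1.62 to 11.7). No direction is read for either, since a difference was not detectable at this depth. At the limit of 3 reads set for a count of 0, WT library 3 allows 14.7 TPM for SOCS1 and 3.51 TPM for CISH; the upper end of the two-sided Poisson interval is higher, at 3.69 reads. The authors' deposited table holds no adjusted p for SOCS1, at a mean of 0.135 normalized counts, and one of 0.957 for CISH, at a mean of 1.11. CISH also shares 218 exonic bases with MAPKAPK3 on the opposite strand.

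**Figure D2:**
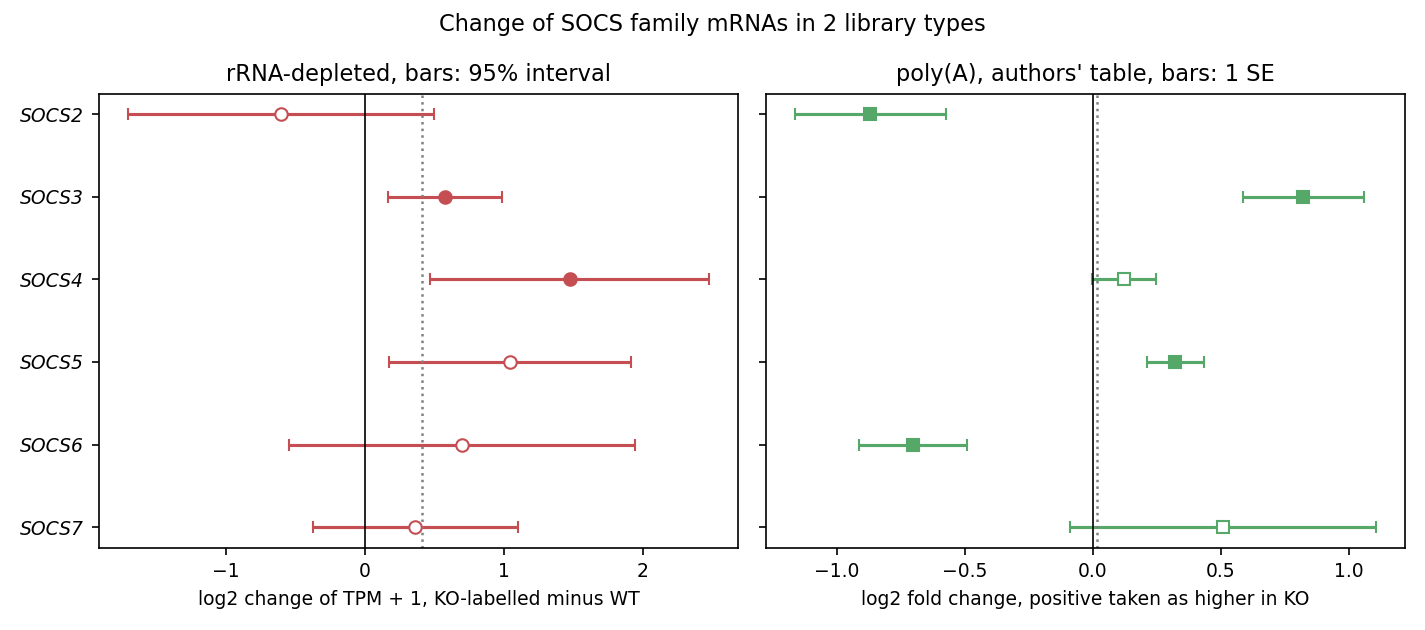
Log2 change of the 6 SOCS members with over 3 reads in a library, KO against wild type; SOCS1 and CISH are not plotted. The left panel shows the rRNA-depleted libraries with 95% intervals, the right panel the authors' deposited table with 1 standard error on its own scale; filled symbols have an adjusted p under 0.05 and the dotted line is the median of all genes tested. SOCS3 is filled on both sides, SOCS2 is left of 0 on both, and SOCS6 changes side.

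The summed TPM of the 8 members was 120, 150 and 130 in WT libraries 1 to 3 and 212, 210 and 223 in KO libraries. Every KO library thus carried more SOCS family mRNA, as a share of its transcripts, than any WT library. Such separation was common: the samples of the 2 genotypes did not overlap, in either direction, for 62.7% of all genes tested. The median log2 change of all genes tested was 0.41, and 0.11 with median ratio scaling, where no member was called. The sum itself was not tested. SOCS3 made up 58.2%, 55.6% and 64.1% of the sum in WT and 50.97%, 48.3% and 59.4% in KO libraries, ranges that overlap. In these bulk samples, a change in the number of cells expressing a gene and a change in its RNA per cell cannot be told apart.

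The m6A consensus GGACT was counted on the sense strand of the longest coding transcript of each member. CISH had 2.31 per kilobase, SOCS3 1.83, SOCS2 1.61, SOCS5 1.47, SOCS7 1.27, SOCS1 1.12, SOCS6 1.03 and SOCS4 0.59, where the median of 19669 protein-coding genes was 0.927. SOCS4 was the one member under that median, at the 28.2 percentile. A match is a description of the sequence and not a methylated site.

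**Figure D3:**
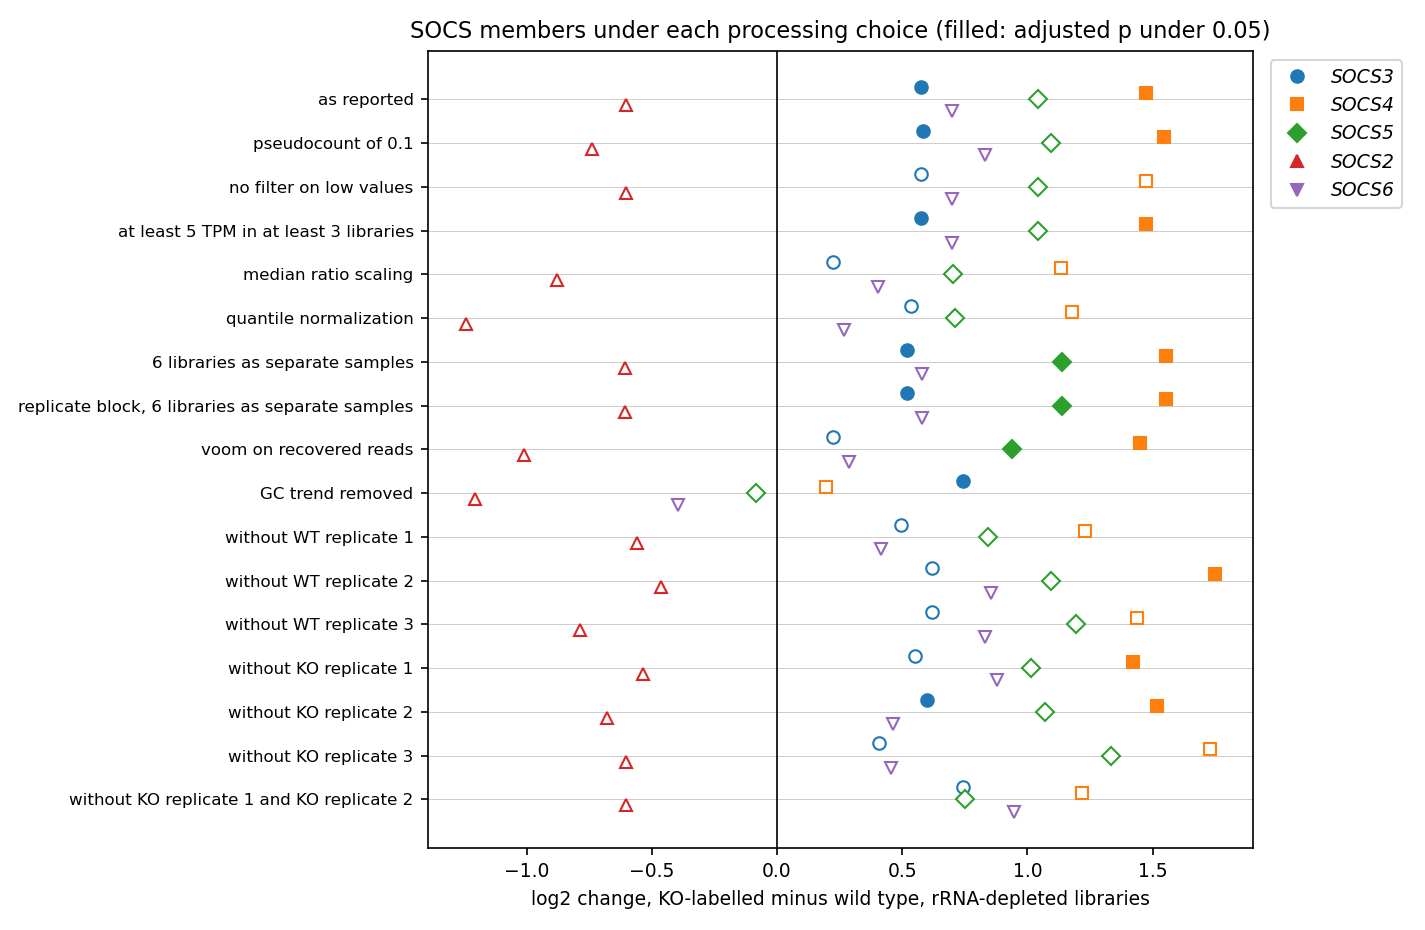
Log2 change of SOCS2 to SOCS6 in the rRNA-depleted libraries under each processing choice, 1 row per choice. Filled symbols have an adjusted p under 0.05. SOCS3 and SOCS4 stay right of 0 in every row, SOCS2 stays left of it in every row but the 5 TPM filter, where it was not tested, while SOCS5 and SOCS6 cross 0 when the GC trend is removed.

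Among the partners through which a SOCS box acts, each gene that passed in the rRNA-depleted comparison was higher there. Each gene that passed in the poly(A) comparison was lower there, but apart from RBX1 these were different genes. Of 11 genes for the cullin 5 ligase and its activation by NEDD8, 5 rose and none fell in the rRNA-depleted libraries (median log2 change 0.89, against 0.41 over all genes), and 3 were lower and none higher in the authors' deposited table (median -0.24, against 0.02). The share of all genes called higher was 22.9% in the rRNA-depleted and 9.55% in the poly(A) comparison, where 10.3% were lower. With the GC trend removed, ELOC, RNF7, DCUN1D1 and CAND1 no longer passed (limma adjusted p from 0.0583 to 0.632), CAND1 turned to -0.12 and 2 of 11 were higher. With median ratio scaling 5 were higher and ELOB lower (-0.57, limma adjusted p = 0.0205). These 5 genes, subunits or regulators of cullin ligases, were named after their values were seen. RBX1, a RING subunit of cullin ligases, passed in both: it stood at 18.3, 6.69 and 13.6 TPM in WT and 87.8, 85.9 and 52.2 TPM in KO libraries, a log2 change of 2.40 (limma adjusted p = 0.0157). RBX1 was lower in the authors' deposited table, at -0.43 (adjusted p = 0.0011). Among 14 other proteins with a SOCS box, 13 were tested and none passed in limma (adjusted p), while 1 of 12 was higher in the authors' deposited table. Their median log2 change was 0.03, or 0.26 with 1 gene at the limit of 3 reads, and -0.19 in the authors' deposited table. The 2 most abundant were ASB6, at 37.3 to 47.9 TPM, and WSB2, at 27.6 to 50.4 TPM.

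Of the Janus kinases and STATs, 3 of 10 rose and none fell in the rRNA-depleted libraries, and the same 3 genes, JAK1 and STAT2 among them, were the ones higher among 9 in the authors' deposited table. JAK1, the kinase that SOCS1 and SOCS3 inhibit, had 33.6, 18.0 and 20.9 TPM in WT and 81.7, 77.6 and 70.5 TPM in KO libraries, with a log2 change of 1.64 (limma adjusted p = 0.0126) and 0.63 in the authors' deposited table (adjusted p = 0.000784). STAT2, a transcription factor of interferon signalling, changed by 0.55 (limma adjusted p = 0.0441), and by 0.62 in the authors' deposited table (adjusted p = 0.00355). With median ratio scaling STAT2 changed by 0.20 (limma adjusted p = 0.324) and with the GC trend removed by 0.16 (limma adjusted p = 0.413). With 22.9% of all genes called higher, 3 of 10 is near the background of the rRNA-depleted comparison. Over all genes, 9.55% were higher in the authors' deposited table, and 7.15% of 12498 were called in both comparisons in the same direction. This list was chosen with earlier results of these data known. These kinases and STATs had a median log2 change of 0.52 in the rRNA-depleted libraries, against 0.41 over all genes, and 0.19 in the authors' deposited table.

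Among cytokine ligands, 7 of 23 were tested in the rRNA-depleted libraries, where 3 fell and none rose, and 2 of 7 were higher in the authors' deposited table. Over all genes, 12.4% were lower in the former, while 9.55% were higher and 10.3% lower in the latter. The median log2 change of the ligands was -0.14 in the former, and -0.01 without 1 gene at 3 reads or fewer, against 0.53 in the authors' deposited table. IL11, a cytokine that signals through gp130, passed in both with opposite signs: its TPM were 276, 267 and 314 in WT and 207, 187 and 196 in KO libraries, a log2 change of -0.54 (limma adjusted p = 0.0181), against 1.42 in the authors' deposited table (adjusted p = 6.49e-05). Of 24 receptors and substrates tested, 6 rose and 2 fell in the rRNA-depleted libraries, near the 22.9% and 12.4% of all genes, and 3 were higher and 2 lower of 24 in the authors' deposited table. Their median log2 changes were 0.63, or 0.36 with 3 genes at the limit of 3 reads, and 0.03 in the authors' deposited table, against 0.41 and 0.02 over all genes. Of these 24, 3 rose and 3 fell with the GC trend removed, and 4 rose and 3 fell with median ratio scaling. IL7R, the interleukin 7 receptor, was higher in both, with a log2 change of 2.10 (limma adjusted p = 0.00272) and 0.40 in the authors' deposited table (adjusted p = 0.0119). The receptor KIT had 2.16 (limma adjusted p = 0.021) in the rRNA-depleted libraries and -0.67 (adjusted p = 9.42e-06) in the authors' deposited table, and with the GC trend removed 1.31, which did not pass (limma adjusted p = 0.104).

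Of the other inhibitors of the pathway, 5 rose and 1 fell of 12 in the rRNA-depleted libraries (median log2 change 1.15, or 0.80 with 1 member set to the limit of 3 reads), and 2 were higher and 1 lower of 12 in the authors' deposited table. Over all genes tested, 22.9% rose and 12.4% fell in the rRNA-depleted libraries. In the poly(A) comparison 9.55% of all genes were higher and 10.3% lower. With the GC trend removed 2 of these inhibitors rose and 1 fell, and with median ratio scaling 4 rose and 2 fell. CBL, a ubiquitin ligase for receptor kinases, was higher in both, at 1.84 (limma adjusted p = 0.0112) and 0.53 (adjusted p = 0.00924) in the authors' deposited table. CBL was at 1.15 with the GC trend removed and did not pass (limma adjusted p = 0.0655). Among STAT target genes outside the family, 5 rose and 4 fell of 17 in the rRNA-depleted libraries, and 5 were higher and 3 lower of 17 in the authors' deposited table, with medians of 0.10 and 0.06. With median ratio scaling 3 of these targets rose and 6 fell. The members called in both moved the same way in each: PIM1, a kinase induced by STATs, stood at 226, 229 and 179 TPM in WT and 51.8, 52.4 and 41.2 TPM in KO libraries, or -2.16 on the log2 scale (SE 0.18; limma adjusted p = 0.00188) and -0.50 in the authors' deposited table. The immediate early gene FOS changed by -2.39 (limma adjusted p = 0.00261) and by -1.28 in the authors' deposited table. The interferon-induced GTPase GBP1 changed by 2.96 (limma adjusted p = 0.00914) and by 1.61 in the authors' deposited table. Its WT libraries held 1, 2 and 3 reads, against 50, 51 and 21 in KO libraries. The size of 2.96 thus rests on WT values at or under the limit of 3 reads. The cell cycle gene CCND1 changed by 0.62 (limma adjusted p = 0.0185) and by 1.15 in the authors' deposited table. With median ratio scaling CCND1 was at 0.27 (limma adjusted p = 0.142) and with the GC trend removed at 0.24 (limma adjusted p = 0.158). Without KO library 3, which leaves 1 KO sample assumed to vary like the others, IL11, KIT, JAK1, STAT2, CBL, CCND1 and GBP1 kept their direction and missed the threshold, at limma adjusted p-values from 0.0558 (JAK1) to 0.164 (STAT2). Without KO libraries 1 and 2, which also leaves 1 KO sample, RBX1 (0.0683), IL11, KIT, JAK1, STAT2 and CCND1 missed it, at limma adjusted p-values from 0.0578 (JAK1) to 0.198 (STAT2). STAT2 also missed it without WT library 2 or 3 (limma adjusted p = 0.057 and 0.0769).

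**Figure D4:**
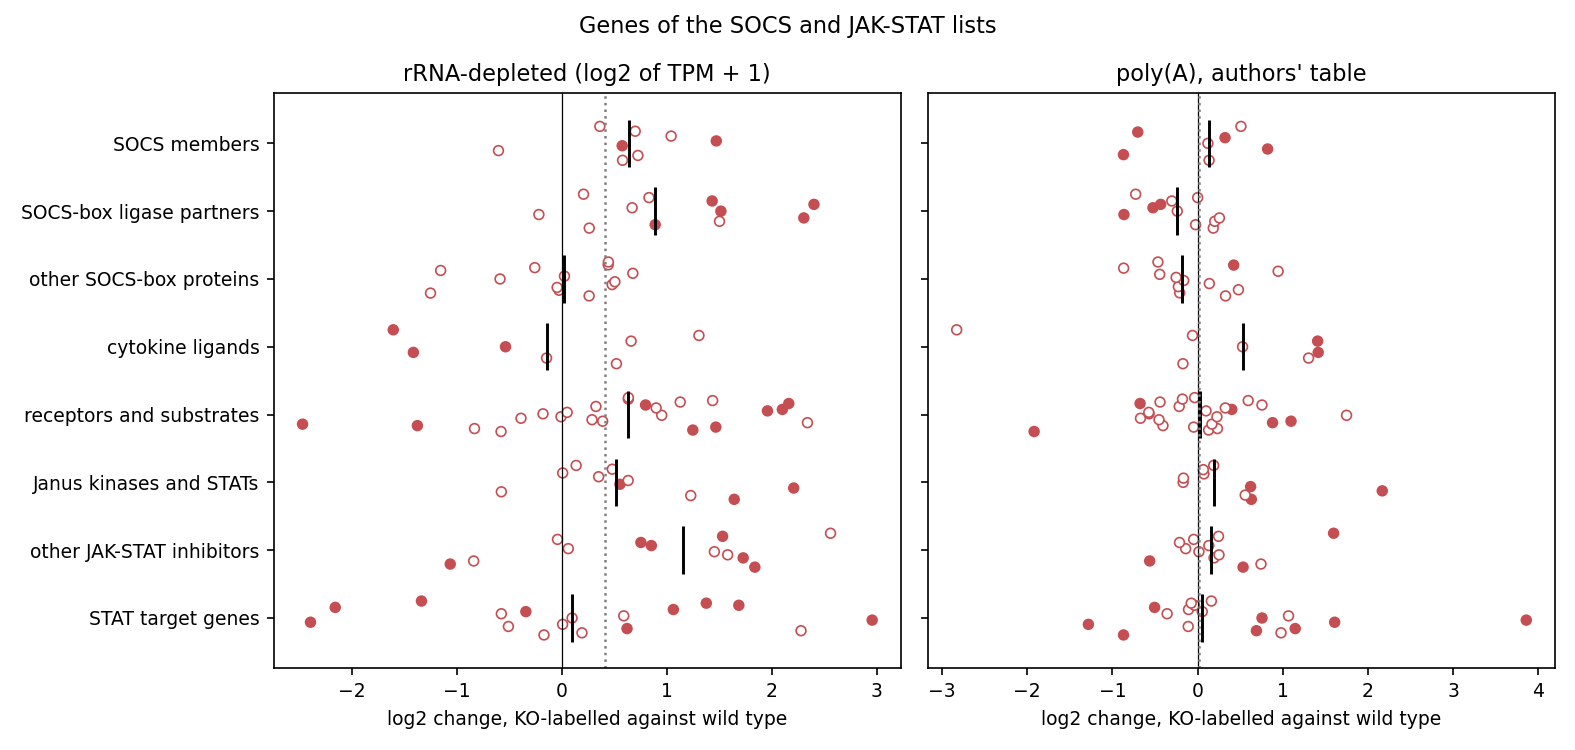
Log2 change of each gene with a test in the SOCS family and in 7 lists of partners and pathway genes, rRNA-depleted on the left and the authors' deposited table on the right. Filled points have an adjusted p under 0.05, black bars are list medians and the dotted line is the median of all genes tested. The filled ligase partners lie right of 0 on the left and left of 0 on the right, and only RBX1 is filled on both sides.

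Of 12898 other genes with at least 5 TPM on average, those whose pattern over the 6 rRNA-depleted libraries came closest to that of SOCS3 were IP6K1, TMEM94 and IER3. Their log2(TPM + 1), centred over the libraries, differed from that of SOCS3 by a root mean square of 0.0592, 0.0672 and 0.07. IER3, an immediate early response gene, ran from 303 to 375 TPM in WT and from 457 to 581 TPM in KO libraries. In the authors' deposited table these 3 genes had log2 fold changes of -0.28, -0.25 and -0.41, against 0.82 for SOCS3, and only that of IER3 passed (adjusted p = 0.0439; IP6K1 0.359, TMEM94 0.282).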

How the data were processed

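The members and gene lists were chosen with earlier results of these data known. Trimmomatic, STAR, DESeq2 and the build hg38 are named in the submitters' processing notes, without roles; annotation and counter are not given in the sources used here. Per the file headers, the authors deposited for poly(A) RNA 1 comparison: a mean normalized count (a signal over all libraries), the log2 fold change, its error, a Wald statistic (a score) and p-values, raw and adjusted. Without counts per library it was described, not retested, where a count test had been foreseen. TPM were deposited for rRNA-depleted RNA. Lengths, positions and GC content came from GENCODE 29, which matched 56927 of 60669 genes (93.8%).

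Reads were recovered from TPM and length; where the lengths differed (SOCS1 and SOCS5), 1 shared factor made all 6 libraries whole. limma 3.58.1 in R 4.3.3 (lmFit, eBayes with trend) was fitted on log2(TPM + 1), which understates changes of low genes, keeping genes that reached 1 TPM in 3 or more libraries. Benjamini-Hochberg adjustment ran over all genes, threshold 0.05. The limma step was tested on simulated data. Exact permutation used scipy 1.17.1.

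Named genes are the 8 members, METTL3, list genes past the threshold in both library types or else the 2 highest, markers at 0 and the 2 highest, and the 3 genes nearest the most abundant member; the values of some genes that this rule names are not reported here.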

Additional observations from a re-analysis of the deposited data

How the results depend on the processing

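The SOCS family calls in the rRNA-depleted libraries depended on the processing. Over all genes, 4415 were called with no filter on low values and 4863 with median ratio scaling, against 5220 as reported. Quantile normalization called 5093 genes and removal of the GC trend 3885. More genes were called with 6 separate libraries (6880) and with voom on recovered reads (7442). The 2 SOCS calls became 0 with no filter on low values, with median ratio scaling, with quantile normalization and at a threshold of 0.01. With the GC trend removed 1 of them remained. Leaving out 1 library at a time gave 0 to 2, and leaving out KO libraries 1 and 2 together gave 0. Calls over all genes, 5220 as reported, were 2242 at 0.01, 2337 without KO libraries 1 and 2, and 2027 to 4922 without 1 library. Pathway list calls, 34 as reported, were 14 at 0.01 and also without KO libraries 1 and 2, and 13 to 33 without 1 library; the lowest values were without KO library 3, which leaves 1 KO sample assumed to vary like the others. The METTL3 change of 0.48 was 0.46 with 6 separate libraries, where it passed, and -0.37 with the GC trend removed. Family members called in the authors' deposited table numbered 4, and 2 at 0.01 and 0 when the log2 fold change had to reach 1 in size. At 0.05, 19.9% of 14009 genes were called there. The share of all genes past the stricter limits was not counted, so the lower counts cannot be set against a background. No counts per library were used for that table, so fits that leave out a library or block by replicate were not run there.

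Several changes that had not passed turned sign. With the GC trend removed SOCS5 was at -0.085, SOCS6 at -0.39, WSB2 at -0.092 and ASB6 at 0.048. SOCS1 and CISH rest on 0 to 3 reads per library, so no direction is read from their signs. Quantile normalization put SOCS7 at -0.035 and CISH at -0.25, and voom put CISH at -0.0079 and SOCS1 at -0.28. Without 1 library SOCS1 ranged from -0.42 to 1.403 and ASB6 from -0.137 to 0.038. SOCS3, SOCS4 and SOCS2 kept their sign in all alternatives run. The cause was not tested. With a replicate block on 6 separate libraries 3 members were called, as without it, and SOCS5 passed at 1.14 (limma adjusted p = 0.0492). Over all genes, 6037 were called with that block and 6880 without it, against 5220 as reported. The added SOCS call thus came with more calls over all genes. Both fits also counted separately the KO libraries that differed by no more than sampling noise. Deviations of libraries with the same number correlated at 0.0203, -0.0205 and 0.00821 over genes, and those with different numbers at -0.0379 to 0.0274. Libraries with the same number were thus no more alike by this measure. Counting noise at these depths can pull such correlations toward 0, so the check cannot decide whether the numbers mark a shared batch.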
